A study of Homo sapiens with 18 samples.

Results

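The genes examined were those that encode the proteins of the cytosolic ribosome, taken by symbol: every protein-coding gene named RPL or RPS with digits and at most 1 of the letters A, X or L, together with RPLP0, RPLP1, RPLP2 and RPSA. Of 81 annotated genes that match, 80 had values, among 35933 genes with values in all, and RPL10L was not analysed here. They comprise 48 genes of the large subunit and 32 of the small subunit. The rule used names alone and no measured value, although the members were chosen with earlier results of these data known.

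RNA sequencing was done on 18 libraries from 3 human breast epithelial lines, with 3 replicates, lettered a, b and c, in each of 6 groups. MCF10A is an immortalized, non-malignant line, and MCF10AT1 is its premalignant derivative, which carries a stably integrated, mutated HRAS. MCF10CA1h is the malignant line of the same lineage, obtained by passing MCF10AT1 cells through mice as serial xenografts. In each line, cells carrying a control negative CRISPR construct were compared with cells labelled METTL3 CRISPR knockdown, in which the guide targeted the catalytic subunit of the enzyme that methylates adenosines of messenger RNA. Both arms had been transfected with an all-in-one Cas9 and guide construct that also expresses mCherry, sorted for mCherry and taken through single-cell cloning, and all lines grew in the same medium with horse serum, insulin, hydrocortisone, cholera toxin and epidermal growth factor. The arms are thus clonal lines, so the construct and the clone cannot be told apart. Nothing in the labels says that the replicates came from separate cultures, and p-values then measure only the spread between these libraries. The labels name the molecule as polyA RNA, whereas the protocol names a total RNA kit with depletion of ribosomal RNA.

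Ribosomal protein mRNAs are among the most abundant of any growing cell, and most of the proteins are present in a single copy in the finished particle, RPLP1 and RPLP2 of its stalk in more. Most of these mRNAs begin with a C followed by an unbroken stretch of pyrimidines, the 5′ terminal oligopyrimidine (TOP) motif, through which the mTOR pathway and LARP1 set their translation and stability together. In breast epithelium, as elsewhere, their synthesis follows growth and the supply of ribosomal RNA.

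The motif is shown first, since it is the sequence feature that the genes share and that the rule did not use. In RefSeq promoter windows of GRCh38.p14, 63 of the 80 genes were matched by symbol. A run of at least 6 letters C or T that covers the start, read on the gene's strand, was present in 48 of the 63 (76.2%), against 2525 of 27305 genes of the table with a window (9.25%). The 22 other TOP mRNAs of a list held it in 14 of the 15 that matched (93.3%), and mitochondrial ribosomal protein genes in 6 of 69 (8.70%). Of 78 windows of the members, 51 (65.4%) had a C at the annotated start, against 14.7% of all windows. The letters CGGAAG, on either strand and anywhere in the window of 250 bases before to 50 after the start, were in 41 members (65.1%), against 22.6% of all genes, and TATAAA in 2 (3.17%), against 2.90%. A match is a description of letters and not of a bound factor. The lines give 30 bases each, 10 before and 20 after the start, for genes whose values are described further on, with the longest pyrimidine run over or near the start in capitals.
RPLP0: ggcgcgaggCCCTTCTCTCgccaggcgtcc
RPS21: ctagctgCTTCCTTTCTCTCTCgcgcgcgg
RPL7A: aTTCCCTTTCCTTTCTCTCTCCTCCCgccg
RPS6: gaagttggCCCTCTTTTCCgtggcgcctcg
RPL35: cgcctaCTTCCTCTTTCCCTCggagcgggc
RPS27A: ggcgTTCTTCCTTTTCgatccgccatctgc
RPS7: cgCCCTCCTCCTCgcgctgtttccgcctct
RPL31: ccttcgcgCTCTTCCTTTCCaacttggacg
RPL9: taatgacgacagacgTTCTTTCTTTgctgc
RPS26: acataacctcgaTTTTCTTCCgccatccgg
RPS29: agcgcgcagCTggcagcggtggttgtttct
RPS27L: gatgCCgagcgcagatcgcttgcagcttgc
These windows lie at chr12:120201092-120201121 on the minus strand (RPLP0), chr20:62387093-62387122 on the plus strand (RPS21), chr9:133348208-133348237 on the plus strand (RPL7A), chr9:19380217-19380246 on the minus strand (RPS6) and chr9:124861938-124861967 on the minus strand (RPL35). Those of chromosome 2 lie at chr2:55232678-55232707 (RPS27A, the last of its 3 annotated starts and the only one of them that a run covers), chr2:3575250-3575279 (RPS7) and chr2:101002279-101002308 (RPL31), all on the plus strand. The windows of RPL9 (chr4:39458903-39458932, minus strand) and RPS26 (chr12:56041908-56041937, plus strand) hold their run after an annotated start at A or G, and no run covers it. RPS29 at chr14:49598691-49598720 and RPS27L at chr15:63157458-63157487, both on the minus strand, are shown because they lack a long run: that of RPS29 has 2 letters, and in RPS27L, the paralog of RPS27 that p53 induces, 2 letters lie before the start, which is a G.

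The values are the deposited normalized counts, which summed to between 21347352 and 31681834 per library. METTL3 itself was at 1022, 1102 and 1280 in the MCF10CA1h control libraries and at 825, 745 and 843 in those labelled knockdown, a log2 difference of -0.49 (SE 0.12, limma, Benjamini-Hochberg adjusted p = 0.0234). In MCF10AT1 its mRNA did not pass (-0.17, limma adjusted p = 0.707). In MCF10A it was at 752, 686 and 459 in controls and at 939, 981 and 510 in the libraries labelled knockdown, an estimate opposite to the label that did not pass (0.33, limma adjusted p = 0.618), so in these 2 lines the transcript does not check the labels. The study reports lower METTL3 protein by Western blot in every line, only moderately so in MCF10CA1h, which RNA values do not measure. Its real-time PCR also gave lower METTL3 mRNA in the knockdown lines, with less of an effect than on protein. Its assay of methylated adenosine in total RNA gave lower levels in every line, not significantly so in MCF10A. One library, MCF10AT1 control c, stood apart from a and b of its group, and counts and medians of comparisons that use it are given with and without it. Of 10 basal epithelial markers, 8 were lower in the MCF10AT1 libraries labelled knockdown than in their controls, and 6 of 10 mesenchymal markers were higher. The mesenchymal markers summed to 128300 to 214300 there, against 3356 to 4791 in the MCF10AT1 controls, 5362 to 15900 in MCF10A and 32310 to 57930 in MCF10CA1h. The medians over the genes of chromosomes 2, 14 and 19 also differed there from the controls, by -0.52, -0.46 and 0.45, so that for every MCF10AT1 value of labelled knockdown a difference in the identity or genome of the clones and an effect of the guide cannot be told apart. Of 4 leukocyte markers PTPRC, CD3E and LYZ were under 10 in every group, and CD68 ran from 144.5 to 2006. Of 4 endothelial markers VWF and CDH5 were under 10 in every group, KDR reached 21.6 and PECAM1 ran from 15.9 to 849, and the part of CD68 and PECAM1 in the results was not tested. The basal markers summed to between 57370 and 175300 in the MCF10AT1 groups and to between 361200 and 825200 in the groups of the other 2 lines.

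Ribosomal protein genes held a larger share of the deposited signal in MCF10AT1 than in the other lines, in all of its libraries but control c. In MCF10A control cells they made up 12.21%, 8.50% and 8.50% of the library sum in replicates a, b and c (9.73% ± 2.14, SD, n = 3), and in the cells labelled knockdown 11.47%, 8.62% and 10.16% (10.08% ± 1.43, SD, n = 3). The MCF10AT1 control libraries held 19.64%, 22.65% and 12.03% (18.11% ± 5.47, SD, n = 3), and those labelled knockdown 19.23%, 19.03% and 16.33% (18.20% ± 1.62, SD, n = 3). In MCF10CA1h the share was 11.43%, 10.13% and 11.74% in controls (11.10% ± 0.86, SD, n = 3) and 9.07%, 9.25% and 10.48% in those labelled knockdown (9.60% ± 0.77, SD, n = 3). Within each line the ranges of both arms overlapped, and MCF10AT1 control c lay within the range of the MCF10A controls. In bulk RNA, fewer cells with a high level and less RNA per cell cannot be told apart.

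**Figure D1:**
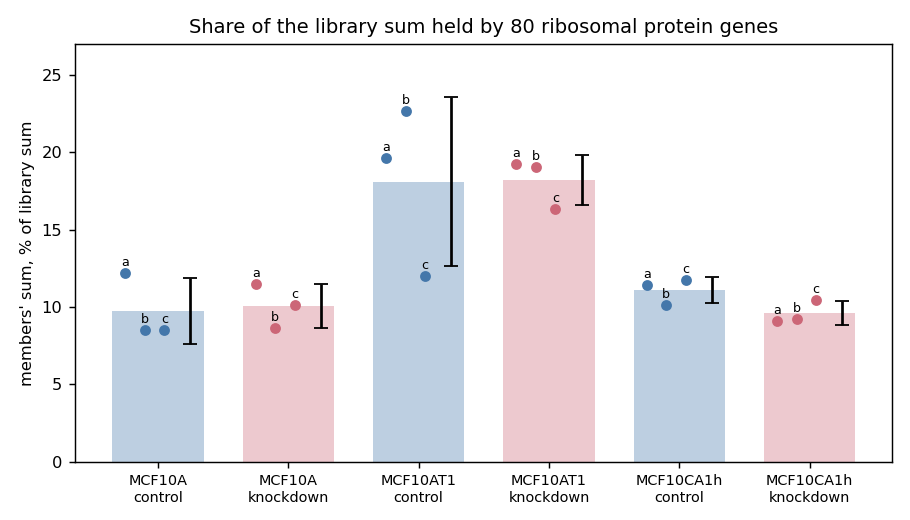
Sum over the 80 ribosomal protein genes as a percent of the library sum (vertical axis) in the 6 groups (horizontal axis), with 1 point per library lettered by replicate, bars at the group mean and error bars of 1 SD (n = 3). The MCF10AT1 libraries sit between 16.33% and 22.65% except for control c at 12.03%, and all others lie between 8.50% and 12.21%.

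Per kilobase of coding sequence, which leaves out untranslated parts that also give reads, the median member stood at a mean level of 75870 over the 18 libraries, and 77 members lay over 10000, the highest of them 53.8 times the lowest. RPL41, which has the shortest reading frame (75 nt), was highest at 958500, ahead of RPL13A at 243900 and RPL37A at 196000. This order rests on the length used, since per kilobase of the canonical transcript RPL13A was highest at 131800, RPL41 was at 106300 and RPL37A at 18080. On the coding scale the P stalk, the flexible arm of the large subunit that recruits translation factors, had RPLP0 at 125400, RPLP1 at 126300 and RPLP2 at 66300. RPSA, a small-subunit protein also known as the laminin receptor precursor, was at 63970, and RPS27A, made as a fusion with ubiquitin, at 105600. RPL5 and RPL11, which form a particle with a small ribosomal RNA and bind MDM2, were at 55110 and 76480. The paralogs were the 3 lowest on both scales, RPS27L at 9631 per coding kilobase, RPL39L, known from testis, at 3152, and RPL3L, known from heart and skeletal muscle, at 7.04. The levels of RPL9 (17830), RPS26 (28870) and RPL36A (30160), the next lowest per coding kilobase, are affected by pseudogene copies that are described with those genes.

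The members rose and fell together across libraries. The log2 values of the median member had a Pearson r of 0.969 with the mean of the other members over the 18 libraries, 68 members exceeded 0.9, and 3 were under 0.6, namely RPL3L (0.564), RPS26 (0.533) and RPL9 (0.422). Next lowest among the abundant members were RPS7 (0.705), RPS27A (0.805), RPL39 (0.838) and RPL31 (0.844). These correlations are a description, and the points share libraries, cell lines and the library-wide differences set out next. Among 12381 other genes, the 5 with the pattern most like the members' mean were a processed pseudogene of RPL9 with no symbol, ENSG00000237550 (0.986), EEF1G (0.983), EIF3F (0.981), JAGN1 (0.979) and the RPL36A pseudogene RPL36AP37 (0.978). EEF1G and EIF3F encode a translation elongation factor subunit and a translation initiation factor subunit.

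Other short transcripts differed between libraries in a similar way, and this was measured before the lines were compared. The canonical transcripts of the members have a median length of 827 nt, and 45 of the 80 are no longer than 1000 nt. As medians of log2 values centred per gene over the 18 libraries, the members were at 0.78, 1.22 and -0.30 in MCF10AT1 controls a, b and c, and 605 other protein-coding genes with transcripts up to 1000 nt were at 0.20, 0.76 and -0.65. The 4629 genes with transcripts over 4000 nt were at -0.25, -0.53 and 0.24 in the same libraries. Controls a and b thus had high members and high short transcripts, and control c had neither. The members' median minus that of the short transcripts was 0.15, 0.07 and 0.20 in MCF10A controls, 0.58, 0.45 and 0.35 in MCF10AT1 controls and -0.42, -0.41 and -0.37 in MCF10CA1h controls, with no overlap between the lines and with control c inside the MCF10AT1 group. In the libraries labelled knockdown this difference was 0.30, -0.10 and 0.24 in MCF10A, 0.06, 0.14 and 0.46 in MCF10AT1 and -0.53, -0.62 and -0.55 in MCF10CA1h, the last range lying below that of its controls. The part of transcript length in the results was not tested, but each comparison was repeated with libraries brought to the same median of these short transcripts, an alternative chosen after seeing the data. Counts on that scale are given without the share over all genes, so they do not compare the members with other genes.

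**Figure D2:**
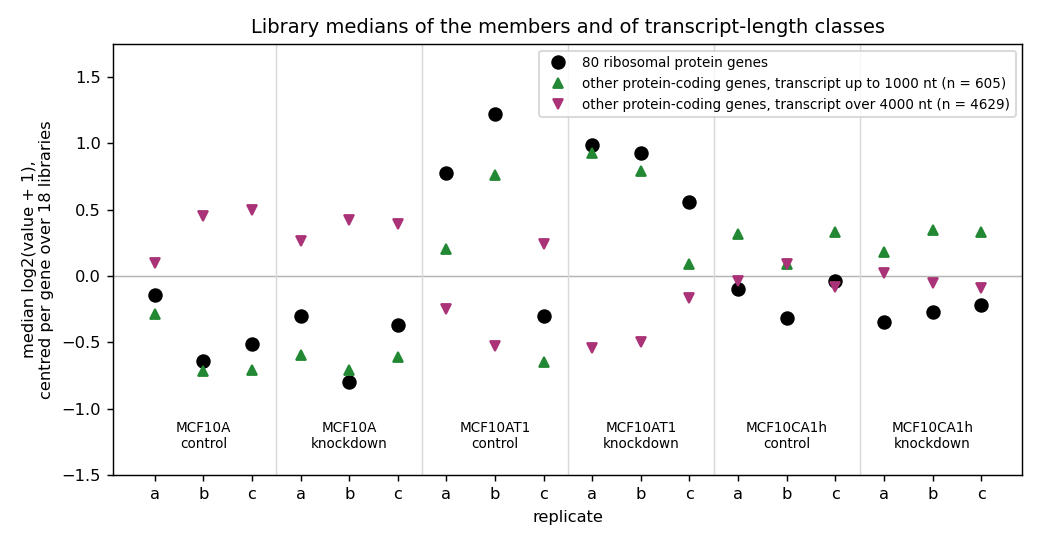
Median over genes of log2(value + 1), centred per gene over the 18 libraries (vertical axis), for each library (horizontal axis) for the 80 ribosomal protein genes (circles), for 605 other protein-coding genes with transcripts up to 1000 nt (upward triangles) and for 4629 with transcripts over 4000 nt (downward triangles). Members and short transcripts were high together in MCF10AT1 controls a and b (0.78 and 1.22 for members), and members lay below short transcripts in all 6 MCF10CA1h libraries.

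The first comparison asked how the control lines of the 3 stages differ. Each stage stands here as a clonal control line, so stage and clone cannot be told apart. In MCF10AT1, 30 of 79 tested members rose against MCF10A and none fell (limma, adjusted p under 0.05), while 28.1% of all 15652 genes tested were called in either direction, 13.3% as higher. All 79 estimates were above 0, from 0.60 to 1.82, with a median log2 fold change of 1.01 against -0.01 over all genes, and 71 had an unadjusted p under 0.05. The small subunit had 20 of 32 members called (median 1.13), the large subunit 10 of 47 (median 0.97). The P stalk genes RPLP0 (1.00, adjusted p = 0.0374), RPLP1 (0.95, adjusted p = 0.0473) and RPLP2 (1.17, adjusted p = 0.0417, limma) were all among those called.

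RPS29, a small zinc-binding protein of the small subunit, gave the largest difference. Its values were 10191, 7271 and 7355 in MCF10A controls and 34097, 43616 and 16292 in MCF10AT1 controls, so that even MCF10AT1 control c lay above the 3 MCF10A libraries. The log2 fold change was 1.82 (SE 0.33, limma adjusted p = 0.00600). RPS21, also of the small subunit, was at 10492, 7424 and 7604 in MCF10A and at 32516, 43935 and 14711 in MCF10AT1, again without overlap (1.72, SE 0.36, limma adjusted p = 0.0100). These were the only 2 of the 30 that stayed past the threshold under each of 17 other settings of the fit. RPS29 lies on chromosome 14 and RPS21 on chromosome 20, each the single member there. In this comparison the other genes of these chromosomes had medians of 0.40 (511 genes) and 0.57 (406 genes), beside -0.01 over all genes. The part of the chromosome in these 2 differences was not tested. The other members with large estimates were RPL39L (1.69, adjusted p = 0.0301), RPS24 (1.48, adjusted p = 0.0176), RPL5 (1.34, adjusted p = 0.0627) and RPS27A (1.26, adjusted p = 0.0299, limma), of which RPL5 did not pass. For RPL39L the MCF10A values were 270, 127 and 158 and those of MCF10AT1 659, 1077 and 256, the last being inside the MCF10A range.

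RPLP0, often used as a reference gene in PCR, was at 96217, 72536 and 78083 in MCF10A controls, at 197140, 221058 and 99323 in MCF10AT1 controls and at 114965, 97671 and 122805 in MCF10CA1h controls. Control c of MCF10AT1 was only slightly above the highest MCF10A library, and the 3 MCF10CA1h libraries were all above the MCF10A libraries. RPS19, RPS3, RPS4X, RPSA and RPL3 were also called in MCF10AT1, at 1.25, 1.19, 1.17, 1.19 and 1.06. Estimates of RPL11 (1.03), RPL23 (0.90), RPS14 (0.74), RPS27 (1.13), RPL22 (0.98), RPL36A (1.24), RPL39 (0.86), RPS6 (1.07) and RPL10 (0.60) did not pass, while RPL26 did (1.02, limma adjusted p = 0.0497).

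Both the size and the count depended on the libraries and the scale. Without MCF10AT1 control c, 79 of 79 members were called and the median was 1.45, with 52.1% of all genes called. Without MCF10A control b or c, or without MCF10AT1 control a, 2 were called, without MCF10AT1 control b 5, and without MCF10CA1h control a, b or c 9, 11 and 10. Here and below, counts from fits without a replicate or under other settings do not compare members with other genes. The exceptions are counts with the share over all genes beside them. With libraries at the same median of short transcripts, the median over all genes shifted to -0.76 and that of the members to 0.28, and 15 members were called. Of these, 14 were among the 30, from RPS12 at 0.41 to RPS29 at 1.09, and RPS6 (0.33) was called on this scale alone.

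Against MCF10A, MCF10CA1h controls differed in few members. Of 79 tested, 2 rose and 1 fell (limma, adjusted p under 0.05), while 37.8% of all genes were called, 19.0% as higher and 18.8% as lower, and 6 members had an unadjusted p under 0.05. The median log2 fold change was 0.28 against -0.06 over all genes, with 61 members above 0 and 18 below. The members that rose were RPS26 (1.79, SE 0.33, adjusted p = 0.00324) and RPL39L (1.74, SE 0.48, adjusted p = 0.0185, limma). RPL9, a large-subunit protein, fell (-1.56, SE 0.42, limma adjusted p = 0.0166). RPL39L stood at 675, 553 and 550 in MCF10CA1h controls, above each of the 3 MCF10A controls. RPS21 (0.94, adjusted p = 0.0630), RPSA (0.92, adjusted p = 0.0588) and RPL41 (0.82, adjusted p = 0.0852, limma) had the next highest estimates and did not pass.

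On the scale of short transcripts the median over all genes shifted to -0.91 and that of the members to -0.56, and 59 members were then called lower and 2 higher. The share over all genes on this scale is not given, so this count does not compare the members with other genes. The sign of the members' median in this comparison therefore depends on the scale, whereas the members lay above the median of all genes on both. Without MCF10AT1 control c, which enters this fit through the estimate of the spread, 19 members were called, 16 higher and 3 lower, at the same median of 0.28. Of all genes 48.8% were then called. Without MCF10AT1 control b there were 7 calls, and without MCF10CA1h control c only 1.

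Against MCF10AT1, 12 of 79 members fell in MCF10CA1h and none rose (limma, adjusted p under 0.05), where 21.8% of all genes were called, 10.8% as lower. The median was -0.70 against 0.05 over all genes, and 33 members had an unadjusted p under 0.05. Those called were RPL9 (-2.16), RPS27A (-1.73), RPL31 (-1.40), RPL12 (-1.33), RPS27L (-1.32), RPS7 (-1.32), RPL37A (-1.30), RPL39 (-1.28), RPS3A (-1.28), RPS29 (-1.27), RPS6 (-1.21) and RPS18 (-1.10). RPS27A and RPL9 stayed past the threshold under each of 17 other settings of the fit. RPS26 had the highest estimate (0.78, limma adjusted p = 0.121). Without MCF10AT1 control c, 76 members were called, all of them lower, at a median of -1.14, beside 35.8% of all genes called. Without MCF10AT1 control a, or without MCF10CA1h control a or b, 2 were called, and without MCF10CA1h control c 4. With equal medians of short transcripts, 69 were lower and 1 was higher, at a median of -0.81, again without the share over all genes. The 3 comparisons between lines share their control libraries, so their values for a gene are not independent.

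RPS27A, whose ubiquitin is released from the ribosomal protein after translation, shows how the lines differed beyond the common shift. It was at 49243, 35241 and 34960 in MCF10A controls, at 107911, 152587 and 50605 in MCF10AT1 controls and at 30562, 26653 and 28328 in MCF10CA1h controls. The 3 lines did not overlap, MCF10AT1 being highest and MCF10CA1h lowest. RPS7, a small-subunit protein that also binds MDM2, followed the same order with 44535, 32680 and 36657 in MCF10A, 75194, 92941 and 38394 in MCF10AT1 and 26718, 23930 and 27100 in MCF10CA1h, but MCF10AT1 control c lay inside the MCF10A range.

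When each library was brought to the same members' median, an alternative chosen after seeing the data, single members could be compared with the rest of the group. This scale shifted the median of all genes by -1.01 in MCF10AT1 against MCF10A, by -0.27 in MCF10CA1h against MCF10A and by 0.73 in MCF10CA1h against MCF10AT1. In MCF10CA1h against MCF10A, 20 members were then called, 11 lower and 9 higher, with 20.3% of all genes called. Those lower included RPL9 (-1.82), RPS7 (-0.80), RPS27A (-0.73), RPL31 (-0.72) and RPL39 (-0.69), and those higher RPS26 (1.53), RPL39L (1.48), RPS21 (0.68), RPSA (0.66) and RPL41 (0.56). In MCF10AT1 against MCF10A, 8 were called, with RPS29 (0.81), RPS21 (0.71) and RPS24 (0.47) higher and RPL10 (-0.41), RPL29 (-0.36), RPL8 (-0.33), RPL14 (-0.32) and RPL4 (-0.28) lower. In MCF10CA1h against MCF10AT1, 21 were called, 10 higher and 11 lower, with RPS26 (1.52) and RPL9 (-1.41) at the ends. Apart from the 20.3% above, counts on this scale are given without the share over all genes, so they do not compare the members with other genes.

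**Figure D3:**
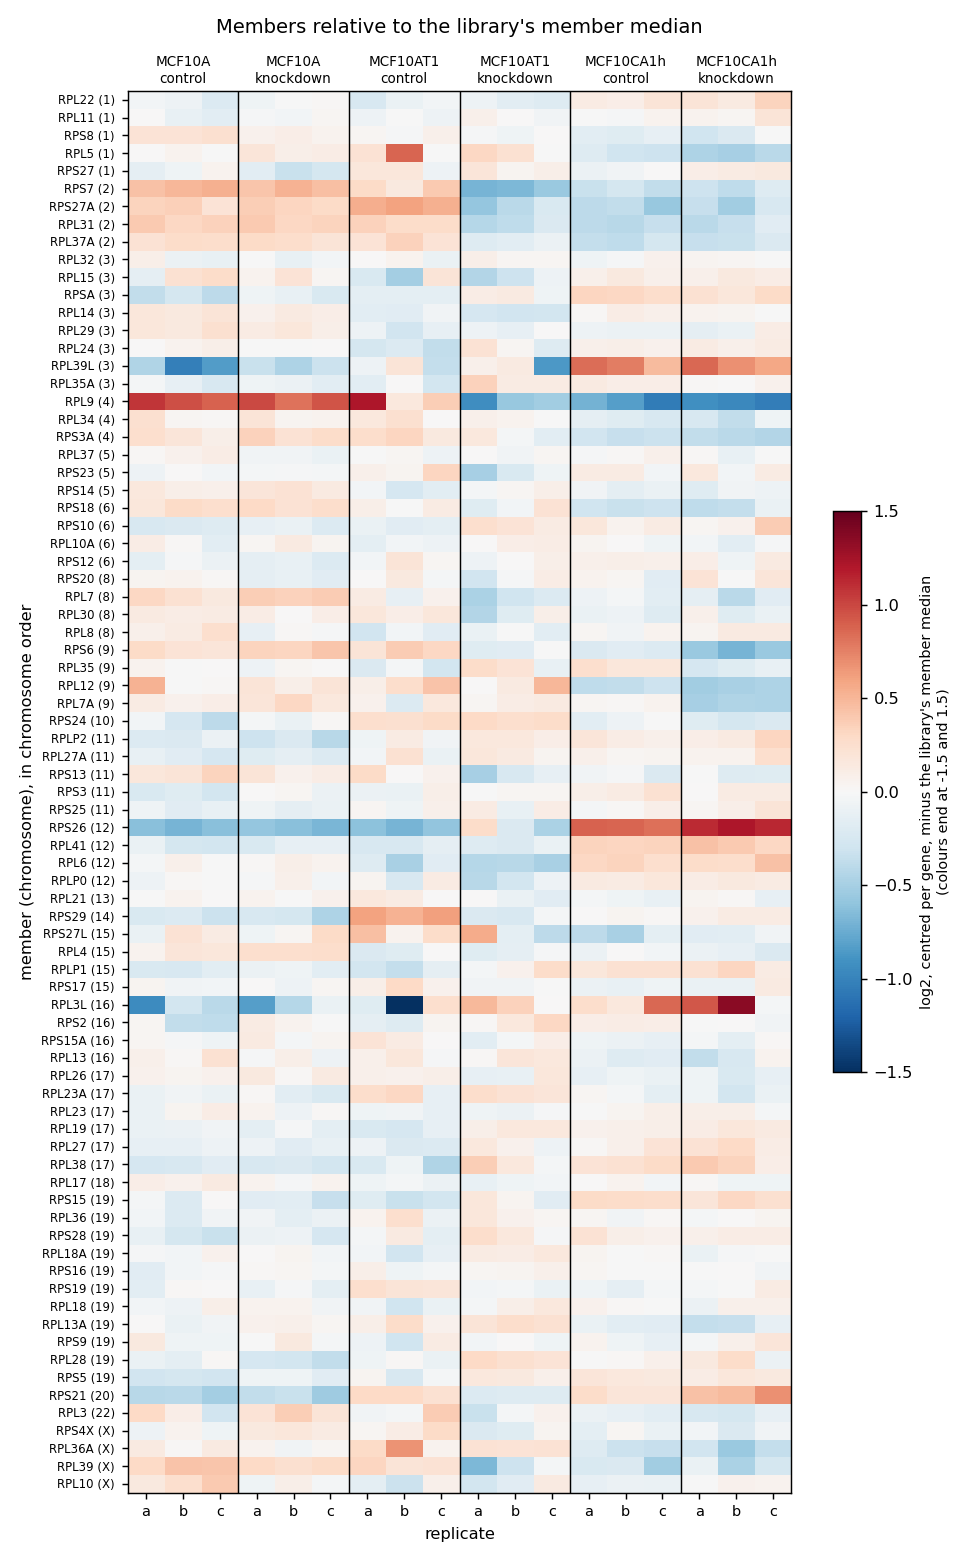
Each row is 1 of 79 ribosomal protein genes (1 of the 80 is not drawn) in chromosome order (chromosome in brackets) and each column 1 library. Colour gives log2(value + 1), centred per gene, minus the member median of that library, and ends at -1.5 and 1.5, beyond which values of RPL3L are not distinguished. RPS7, RPS27A, RPL31 and RPL37A, the 4 members on chromosome 2, are above the library's member median in the 6 MCF10A libraries and the 3 MCF10AT1 controls and below it in the 9 libraries of MCF10AT1 labelled knockdown and of MCF10CA1h.

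The second comparison set the libraries labelled knockdown against the controls of each line. In MCF10A, where METTL3 mRNA did not follow the label, no member passed in either direction (0 of 79, limma, adjusted p under 0.05, and 0 at an unadjusted p under 0.05), while 2.65% of 15416 genes were called. The median log2 fold change was -0.05 against 0.00 over all genes, the estimates ran from -0.33 for RPL10, a late-joining protein of the large subunit, to 0.34 for RPL39L, and the median SE was 0.21. RPL10 was at 53992, 40782 and 49361 in controls and at 41773, 32530 and 40540 in those labelled knockdown, ranges that overlap (limma adjusted p = 0.409). RPL28 (-0.28), RPS27 (-0.26), RPS2 (0.24) and RPL3 (0.16) were the next in size. With the replicate letter as a block, which pairs libraries by letter, the count was also 0, with 1 member at an unadjusted p under 0.05.

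In MCF10AT1, too, no member passed (0 of 80, limma, adjusted p under 0.05, and 0 at an unadjusted p under 0.05), while 13.0% of 16050 genes were called. The median was 0.28 against 0.02 over all genes, with estimates from -0.99 for RPL9 to 1.05 for RPL3L, and the median SE was 0.44. The lowest estimates after RPL9 were those of RPS27A (-0.70), RPS7 (-0.66), RPS29 (-0.48), RPL31 (-0.38) and RPL39 (-0.32), and the highest after RPL3L were RPS26 (0.76), RPL38 (0.68) and RPLP1 (0.62). RPL3L was at 11.2, 5.29 and 6.84 in controls and at 21.6, 18.6 and 11.0 in those labelled knockdown, levels close to the filter of a mean of 10.

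This comparison depended on 1 library. Without MCF10AT1 control c the median was -0.15, and 3 members fell: RPL9 (-1.53, adjusted p = 0.0141), RPS27A (-1.15, adjusted p = 0.0433) and RPS7 (-1.03, adjusted p = 0.0498, limma). Of all genes 11.0% were called in that fit, a larger share than among the 80 members. RPS27A was at 57556, 62410 and 54272 in the libraries labelled knockdown, below controls a and b and above control c. RPS7 was at 44207, 43054 and 36144 there, below controls a and b (75194 and 92941) and on both sides of control c (38394). Relative to the members' median, with all 6 libraries, RPS27A (-0.91, adjusted p = 0.00542), RPS7 (-0.87, adjusted p = 0.00689), RPS29 (-0.69, adjusted p = 0.0406) and RPL31 (-0.59, adjusted p = 0.0452, limma) were lower, while the median of all genes was at -0.21. On the scale of short transcripts the same 4 genes were lower, with the members' median at -0.19 and that of all genes at -0.46. The change in epithelial and mesenchymal markers in these libraries moves with the comparison, and its part in the result was not tested.

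In MCF10CA1h, 3 of 80 members fell and none rose (limma, adjusted p under 0.05), while 12.8% of 15127 genes were called, 4.85% as lower. The 3 were RPL7A, RPS6 and RPL35, and 10 members had an unadjusted p under 0.05. The median was -0.12 against -0.02 over all genes, with 73 members below 0 and 7 above. The estimates here were the most precise of the 3 lines, with a median SE of 0.11.

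RPL7A, a large-subunit protein whose gene hosts small nucleolar RNAs, was at 86580, 73575 and 91544 in controls and at 50697, 55167 and 56499 in those labelled knockdown, without overlap (-0.63, SE 0.10, limma adjusted p = 0.00406). RPS6, the small-subunit protein that S6 kinases phosphorylate downstream of mTOR, was at 65904, 58147 and 69230 against 43896, 42094 and 47895, also without overlap (-0.53, SE 0.10, limma adjusted p = 0.00726). RPL35, which lies near the exit tunnel of the large subunit, was at 31642, 25657 and 31134 against 18841, 20814 and 22701 (-0.50, SE 0.11, limma adjusted p = 0.0149). The libraries labelled knockdown were below the controls in each of the 3 genes. Of 15 other settings of the fit, 14, 13 and 10 kept RPL7A, RPS6 and RPL35 past the threshold. In the joint fit of the 18 libraries, which shares 1 estimate of the spread over all lines, none of the 3 passed (adjusted p = 0.364, 0.629 and 0.731, limma). On the scale of short transcripts 10 members were lower, including RPL5 (-0.39), RPS24 (-0.34) and RPL12 (-0.33). Without MCF10CA1h control b, 6 were lower.

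The 3 genes that fell all lie on chromosome 9, RPS6 at chr9:19375715-19380236, RPL35 at chr9:124857880-124861981 and RPL7A at chr9:133348218-133351426 (hg38). The 615 other tested genes of chromosome 9 had a median log2 fold change of -0.40 in this comparison, the lowest of any chromosome (the others reached up to 0.16), and 190 of them were called lower and 13 higher. The fourth member there, RPL12 at chr9:127447674-127451406, was at 42276, 36517 and 46210 in controls and at 32483, 35152 and 36847 in those labelled knockdown (-0.25, limma adjusted p = 0.149). Per library, the centred median of 508 genes of chromosome 9 was 0.09, 0.07 and 0.02 in MCF10CA1h controls and -0.34, -0.34 and -0.37 in those labelled knockdown. The members called in this comparison thus moved in the same direction as the other genes of their chromosome, whose part in the result was not tested.

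Chromosome 2 showed the like in MCF10AT1, where the 1059 other tested genes had a median of -0.52 in labelled knockdown against control, and 110 were called lower and 60 higher. The 4 members there, RPS7 (chr2:3575260-3580920), RPS27A (chr2:55231903-55235853), RPL31 (chr2:101002229-101024032) and RPL37A (chr2:216498825-216579180), had the same median of -0.52, although none was called on the deposited scale. The centred median of 826 genes of chromosome 2 lay between 0.37 and 0.48 in the 6 MCF10A libraries, between 0.07 and 0.23 in the MCF10AT1 controls, between -0.49 and -0.33 in the MCF10AT1 libraries labelled knockdown and between -0.29 and -0.21 in the 6 MCF10CA1h libraries. MCF10AT1 control c, at 0.23, was with its group on this measure. RPS29, the single member on chromosome 14, had -0.48 beside a median of -0.46 over 535 other genes, and the 12 members on chromosome 19 had a median of 0.43 beside 0.45 over 1081 others. In MCF10A the chromosome medians ran only from -0.05 to 0.03.

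Between control lines the same was seen for some members. In MCF10CA1h against MCF10A the 1038 other genes of chromosome 2 had a median of -0.73 and the 4 members -0.46, and RPS21 had 0.94 beside 0.55 over 406 other genes of chromosome 20. RPS26 at 1.79 exceeded the median of 0.42 over 841 other genes of chromosome 12, and RPL9 at -1.56 lay below that of -0.28 over 539 genes of chromosome 4. In MCF10CA1h against MCF10AT1 all 4 members on chromosome 2 were called, with a median of -1.36 beside -0.38 over the other genes.

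**Figure D4:**
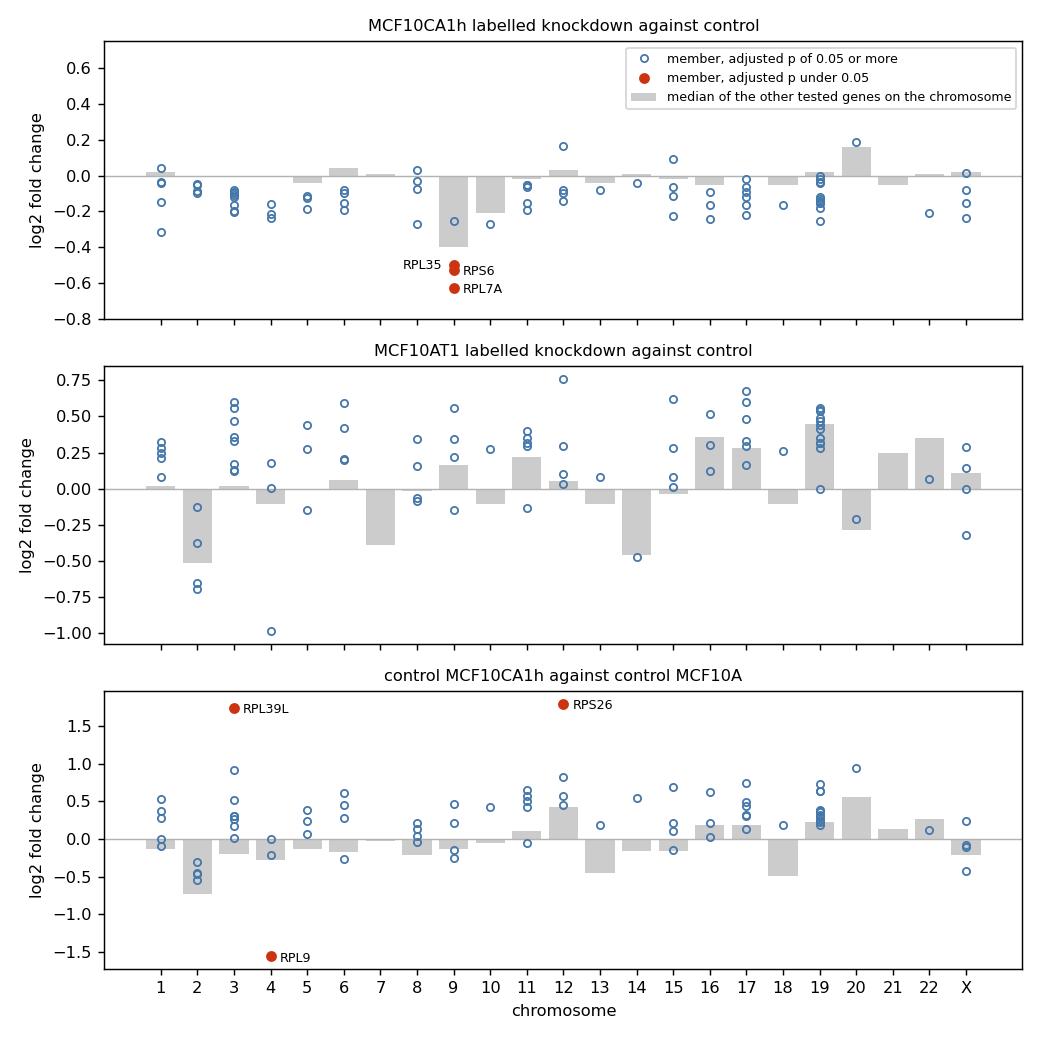
Log2 fold change (vertical axis) of the ribosomal protein genes by chromosome (horizontal axis) in 3 comparisons, with bars at the median of the other tested genes of each chromosome, open circles for members that did not pass and filled circles for members with an adjusted p under 0.05 (limma); RPL3L is not drawn. In MCF10CA1h the 3 filled circles lie on chromosome 9, whose other genes have a median of -0.40, and in MCF10AT1 the members of chromosome 2 lie below 0 with a chromosome median of -0.52.

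No member passed for a difference between lines in the effect of labelled knockdown on the deposited scale (0 of 79 in each of the 3 interaction contrasts of the joint limma fit), while 21.6% of genes were called for MCF10AT1 against MCF10A, 5.34% for MCF10CA1h against MCF10A and 18.2% for MCF10CA1h against MCF10AT1. At an unadjusted p under 0.05 there were 0, 0 and 2 members. The median differences of the effect were 0.30, -0.05 and -0.38, beside 0.00, -0.03 and -0.01 over all genes. With the replicate block, 2, 0 and 2 members passed. Without MCF10AT1 control b, 6 passed in each of the 2 contrasts with MCF10AT1, and without control c 4 and 5, with medians of -0.13 and 0.05. Without control c 21.7% and 18.3% of all genes were called in these contrasts.

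RPL9 and RPS26, which followed the other members least, are genes whose reads are shared with copies. Counting transcripts that share at least 50 stretches of 31 bases with a member, 455 pseudogene rows of the table belonged to 67 members, and in 72 of the 80 members they summed to under 2% of the gene's own row. They exceeded 10% for 5 members: RPL9 (298%), RPL36A (63.9%), RPS26 (58.5%), RPL23A (44.8%) and RPS28 (36.2%). Levels of these 5 genes are thus uncertain, since pseudo-alignment divides reads between near-identical sequences.

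The RPL9 row held 15793, 10405 and 10712 in MCF10A controls, 33062, 21462 and 8692 in MCF10AT1 controls and 4728, 3734 and 3902 in MCF10CA1h controls. Its processed pseudogene at chr15:82372196-82372916 (ENSG00000237550) held 62.7% to 65.4% of the sum of both rows in the MCF10A controls, 61.2% to 76.7% in the MCF10AT1 controls and 84.2% to 86.5% in the MCF10CA1h controls. Within MCF10AT1 it held 82.4% to 84.6% in the libraries labelled knockdown, above the 3 controls. With pseudogene values added to their gene, an alternative chosen after seeing the data, RPL9 no longer passed in MCF10CA1h against MCF10A (-0.28, adjusted p = 0.581) or against MCF10AT1 (-1.17, adjusted p = 0.0518, limma). The RPL9 calls between control lines were thus made on the gene's own row and not on the sum with its copy.

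RPS26, a protein at the mRNA exit of the small subunit, behaved otherwise. Its row held 4912, 3287 and 3799 in MCF10A controls, 9356, 11973 and 4501 in MCF10AT1 controls and 14388, 12254 and 14402 in MCF10CA1h controls, the last being above all the others. Its copy at chr4:113214046-113217170 held between 30.3% and 42.2% of the sum over the 18 libraries, and with it added the difference between MCF10CA1h and MCF10A was 1.94 (limma adjusted p = 0.00214). In the libraries labelled knockdown the RPS26 row was at 4550, 3098 and 4023 in MCF10A, at 20108, 13739 and 8873 in MCF10AT1 and at 14245, 16117 and 15659 in MCF10CA1h, and its estimates for labelled knockdown did not pass in any line.

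**Figure D5:**
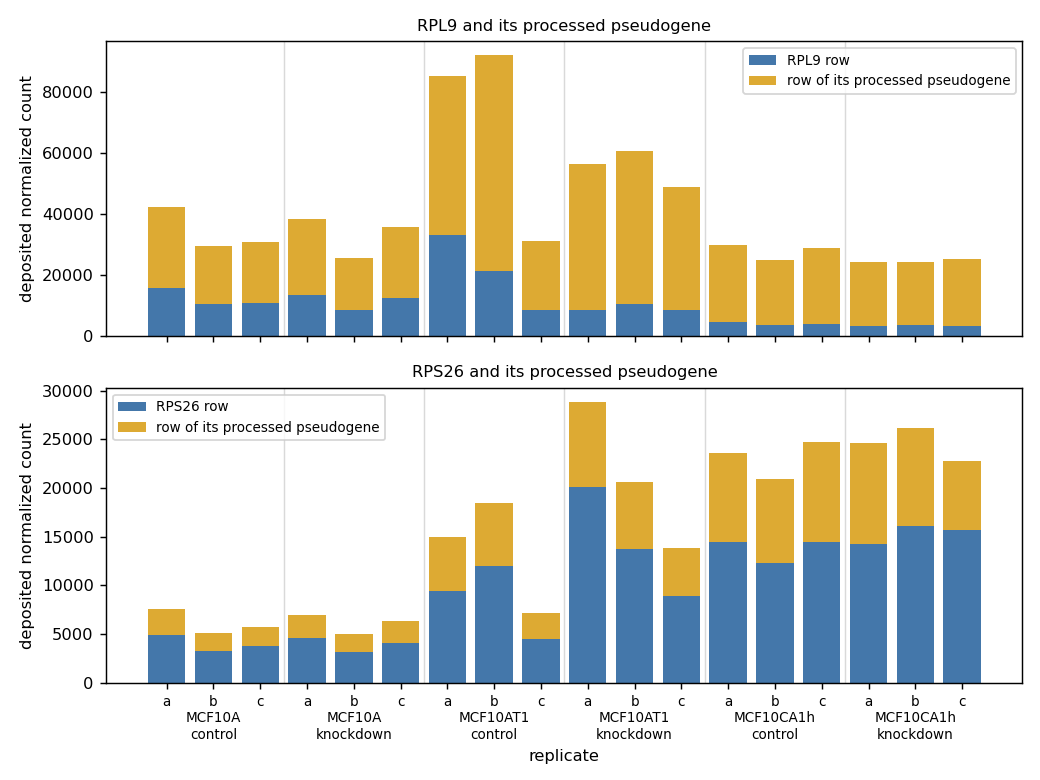
Deposited normalized counts (vertical axis) of the RPL9 row (upper panel) and the RPS26 row (lower panel), each stacked with the row of its processed pseudogene, in the 18 libraries (horizontal axis). The pseudogene takes 61.2% to 86.5% of the RPL9 sum in the control libraries, with the highest shares in MCF10CA1h, and 30.3% to 42.2% of the RPS26 sum.

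Among the other paralogs, RPS27L was at 1797, 1576 and 1619 in MCF10A controls, at 4962, 5114 and 2085 in MCF10AT1 controls and at 1507, 1204 and 1867 in MCF10CA1h controls. It was called as higher in MCF10AT1 than in MCF10A (1.18, limma adjusted p = 0.0298) and as lower in MCF10CA1h than in MCF10AT1, and its 3 estimates for labelled knockdown lay between -0.06 and 0.09. RPL3L lay under 5 in each MCF10A library and did not enter the tests of the control lines. Of the ribosomal protein genes FAU, RPL22L1, RPL36AL, RPL26L1 and RPL7L1, which the naming rule leaves out, RPL26L1 rose in MCF10CA1h against MCF10A (0.90, limma adjusted p = 0.0276) and no other call was made in the 6 comparisons.

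The genes that act with ribosomal proteins were counted from lists, beside shares over all genes of 28.1% called in MCF10AT1 against MCF10A, 37.8% in MCF10CA1h against MCF10A and 21.8% in MCF10CA1h against MCF10AT1. Of 22 other TOP mRNAs, which encode translation factors such as EEF1D and EIF3L, 4 rose and 2 fell in the first (27.3%, median 0.44), 2 rose and 4 fell in the second (27.3%, median -0.24), and 1 rose and 7 fell in the third (36.4%, median -0.64). The first of these shares is about that of all genes and the second is below it. Of 12 TOP host genes of small nucleolar RNAs, 6 rose in MCF10AT1 against MCF10A (median 1.00), and 6 fell in MCF10CA1h against MCF10AT1 (median -1.00), among them ZFAS1 at 1.72 and -2.36. Ribosome biogenesis factors took another course, with 26 of 42 higher and 2 lower in MCF10CA1h against MCF10A (66.7%, median 0.81), including NOP56 of the methylation guide particles at 2.44 and TCOF1 of ribosomal RNA transcription at 2.15, while the members' median there was 0.28. In MCF10AT1 against MCF10A, 9 of the 42 rose and 1 fell (23.8%, median 0.33), a share below that of all genes. Of 14 genes of RNA polymerase I, 1 rose and 3 fell in MCF10AT1 and 3 rose and 1 fell in MCF10CA1h, both against MCF10A (28.6% in each). Of 16 genes that control TOP translation, 3 rose and 1 fell in the first and 1 rose and 2 fell in the second.

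These counts, too, depended on MCF10AT1 control c. Without it, 15 of the 22 TOP mRNAs rose and 3 fell in MCF10AT1 against MCF10A (median 0.75), beside 52.1% of all genes called. The host genes then had 11 of 12 higher (median 1.44), the biogenesis factors 22 higher and 5 lower (median 0.40), RNA polymerase I 5 higher and 4 lower, and the controllers of TOP translation 6 higher and 5 lower. In MCF10CA1h against MCF10AT1, where 35.8% of all genes were called without it, 17 TOP mRNAs fell and 1 rose (median -0.93) and 10 host genes fell (median -1.40). In MCF10CA1h against MCF10A, where the share over all genes was 48.8%, 29 biogenesis factors were higher and 4 lower at the same median of 0.81.

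Within lines fewer genes of these lists passed, although the median of RNA polymerase I was -0.46 and that of the controllers of TOP translation -0.26 in MCF10AT1 labelled knockdown, beside 0.02 over all genes. In the MCF10CA1h libraries labelled knockdown, where 12.8% of all genes were called and 4.85% were lower, 4 of the 22 TOP mRNAs fell and none rose (18.2%), with EIF4B at -0.53 and EIF3L at -0.39. There 5 biogenesis factors fell and 1 rose (14.3%), and 2 genes of RNA polymerase I fell (14.3%), POLR1E at -0.59 and UBTF at -0.36. These shares are near the 12.8% of all genes called in either direction. In both lists the share that fell was above the 4.85% of all genes called lower. In MCF10A the calls over these lists were DDX10 (-1.09) among biogenesis factors and SESN1 (1.11) among the controllers of TOP translation. In MCF10AT1 the biogenesis factor DDX10 (1.80) was the single call. Without MCF10AT1 control c no biogenesis factor passed there. Instead 1 host gene and 1 gene of RNA polymerase I were lower and 1 controller of TOP translation was higher, beside 11.0% of all genes called. The medians of RNA polymerase I and of the controllers were then -0.25 and -0.09. The lists were chosen with earlier results of these data known, and their counts are a description.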

How the data were processed

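Per the submitters' notes and the study's methods, the authors pseudo-aligned paired reads to the hg38 transcriptome with kallisto 0.46.1, summed transcripts to genes with tximport and normalized with DESeq2 1.26.0 in R 4.1.1. The deposited values are these normalized counts (a signal, not whole counts). Depth in reads is not given in the sources used here. The annotation release used by the authors is not given there either. Rows with no gene or no value (24646) were left out, and no value column was left unmapped. The members and gene lists were chosen with earlier results of these data known.

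Here, log2(value + 1) was fitted with limma 3.58.1 in R 4.3.3 (empirical Bayes with trend, two-sided) on genes whose average reached 10 in the fitted libraries, with Benjamini-Hochberg adjustment over all genes tested and a threshold of 0.05. Fold changes are on that log2 scale, which understates low genes. Each line's knockdown was fitted on its own 6 libraries, control lines on 9, and interactions on 18. The script was tested on simulated data. Tables were made with Python 3.11.15, numpy 2.4.6 and pandas 2.3.3. Genes were placed with GENCODE gene models of GRCh38, the build of hg38, and promoter windows are from RefSeq.

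Named members were the 5 largest rises and falls past the threshold and the 3 largest of any p in each comparison, fixed members (the P stalk, MDM2-binding, X-linked and disease-linked genes and paralogs), and the extremes of level. Of other lists, up to 2 rises and 2 falls were named. Further members were named because they were called under an alternative scale or lie on chromosomes 2 and 9, chosen after their values were seen.

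Alternatives were other pseudocounts and filters, rescaling, no trend, a joint fit, a replicate block and leaving out each replicate. In MCF10A, libraries with the same letter deviated together (r = 0.233, 0.227 and 0.130 for a, b and c over 15416 genes), and the letters were taken as pairing the arms. Between MCF10A and MCF10AT1 controls r was 0.294, -0.266 and 0.275, so r alone does not establish this pairing. No 2 libraries held identical values. Some single genes are not reported here.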

Additional observations from a re-analysis of the deposited data

Results flagged for a closer look

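Effects of labelled knockdown that differed between lines were found once each library was brought to the same members' median, a scale chosen after seeing the data, by the interaction terms of the joint limma fit (adjusted p under 0.05). On the deposited scale none of these differences passed. For MCF10AT1 minus MCF10A, the log2 difference of the effect was 0.45 for RPL19, 0.59 for RPL28, -0.55 for RPL31, -1.12 for RPL9, -0.91 for RPS27A, -0.58 for RPS29, -0.47 for RPS6 and -0.81 for RPS7. For MCF10CA1h minus MCF10A it was -0.58 for RPL7A and -0.50 for RPS6. For MCF10CA1h minus MCF10AT1 it was 0.68 for RPL31, -0.71 for RPL35, -0.62 for RPL7A, 1.10 for RPL9, 0.75 for RPS21, 0.99 for RPS27A, 0.78 for RPS29 and 0.91 for RPS7. The first and the last of these contrasts share the MCF10AT1 libraries. RPL31, RPS27A and RPS7 lie on chromosome 2 and RPL35, RPL7A and RPS6 on chromosome 9. The values of RPL9 are affected by its pseudogene.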

How the results depend on the processing

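Of 150 values recomputed under other settings, apart from those without a replicate, 132 kept to within 1.5 times a count or to within the spread, and 18 did not. Of 216 that leave out a replicate 192 kept, and of 54 under alternatives chosen after seeing the data 32. The causes were not tested. No median changed sign in a comparison with called members except under rescaling to the members or to short transcripts.

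Counts of members called changed as follows, given without the share over all genes, so they do not compare members with other genes. With equal library sums they were 7 for labelled knockdown in MCF10CA1h, 48 for MCF10AT1 against MCF10A, 8 for MCF10CA1h against MCF10A, 23 for MCF10CA1h against MCF10AT1, and 2 and 1 for the interactions of MCF10AT1 with MCF10A and of MCF10CA1h with MCF10AT1. Without the intensity trend they were 1 for labelled knockdown in MCF10CA1h and 12 for MCF10AT1 against MCF10A, which also had 12 with no filter. The joint fit gave 1 for labelled knockdown in MCF10AT1 and 0 in MCF10CA1h.

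With the replicate block, which pairs libraries by letter, the counts were 15 for MCF10AT1 against MCF10A and 2 for each interaction with MCF10AT1. The block kept the other counts within 1.5 times. In MCF10AT1 r was 0.097, 0.272 and 0.473 for a, b and c, of the order seen in MCF10A, so the letters may pair the arms there too. Its library c labelled knockdown also had a lower centred members' median (0.56) than a and b (0.99 and 0.93), as control c did. The main fits did not use the letters. In MCF10CA1h (-0.038 to 0.037) r gave no sign of pairing, and between control lines r ran from -0.288 to 0.294.

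At the same members' median the counts were 4 for labelled knockdown in MCF10AT1, 8 for MCF10AT1 against MCF10A, 20 and 21 for MCF10CA1h against MCF10A and MCF10AT1, and 8, 2 and 8 for the interactions, with medians of 0.02 for labelled knockdown in MCF10CA1h, 0.00 for MCF10AT1 against MCF10A and 0.05 for MCF10CA1h against MCF10AT1. At the same median of short transcripts the counts were 4 and 10 for labelled knockdown in MCF10AT1 and MCF10CA1h, 15, 61 and 70 between lines, and 8, 1 and 7 for the interactions, with medians of 0.28 and -0.56 for MCF10AT1 and MCF10CA1h against MCF10A and of -0.17 and 0.01 for the interactions of MCF10AT1 with MCF10A and of MCF10CA1h with MCF10AT1.

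Without single replicates, counts ran from 0 to 0, 0 to 3 and 2 to 6 for labelled knockdown in MCF10A, MCF10AT1 and MCF10CA1h (medians -0.17 to 0.11, -0.15 to 0.60 and -0.19 to -0.07). Between lines they ran from 2 to 79, 1 to 19 and 2 to 76 (medians 0.69 to 1.45, 0.17 to 0.40 and -1.14 to -0.40), and for the interactions from 0 to 6, 0 to 0 and 0 to 6 (medians -0.13 to 0.61, -0.22 to 0.05 and -0.75 to 0.05). Shares ran from 8.50% to 10.35% and 9.39% to 10.82% in MCF10A, 15.84% to 21.14% and 17.68% to 19.13% in MCF10AT1 and 10.78% to 11.59% and 9.16% to 9.87% in MCF10CA1h, controls first. Without the 5 members with the highest mean, shares of libraries labelled knockdown were 8.26% (MCF10A), 15.14% (MCF10AT1) and 8.19% (MCF10CA1h), and that of MCF10CA1h controls was 9.27%.

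Normalized counts carry no read depth, so counting error could not be separated from the spread between replicates. With 3 libraries a group and a spread such as that of MCF10AT1, a count of 0 does not show that levels were alike.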

Other observations

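Mitochondrial counterparts were counted from lists chosen with earlier results known. Of 77 tested mitochondrial ribosomal protein genes, 16 rose and 1 fell in MCF10AT1 against MCF10A (median 0.71) and 39 rose and 2 fell in MCF10CA1h against MCF10A (median 0.86), where 37.8% of all genes were called (limma, adjusted p under 0.05) and 28.1% in the first. Of 75 nuclear genes of oxidative phosphorylation, 10 rose and 1 fell in the first and 30 rose and 1 fell in the second (medians 0.75 and 0.84). The 13 mRNAs encoded by mitochondrial DNA had 4 higher and none lower in the first (median 0.50) and none higher and 1 lower in the second (median -0.30). Without MCF10AT1 control c, the first comparison had 62 mitochondrial ribosomal protein genes higher and 1 lower, 63 genes of oxidative phosphorylation higher and 2 lower and 6 mitochondrially encoded mRNAs higher and 1 lower, beside 52.1% of all genes called. In the second there were 53 higher and 4 lower, 56 higher and 1 lower, and 1 higher and 4 lower, beside 48.8%. In MCF10CA1h against MCF10A the cytosolic members' median was 0.28, and other protein-coding genes with transcripts up to 1000 nt had a median of 0.81. Of the mitochondrial ribosomal protein genes 26 of 78 have transcripts of that length, and of the oxidative phosphorylation genes 51 of 80; the part of length was not tested. In the MCF10CA1h libraries labelled knockdown, 3 of 77 mitochondrial ribosomal protein genes fell (3.90%), fewer than the 4.85% of all genes called lower.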
